A study of Mus musculus with 6 samples.

Results

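The immunity-related GTPases (IRG proteins) of the mouse were described in CD11b+Gr-1+ cells sorted from liver. The family was taken as 6 listed symbols, Iigp1, Igtp, Irgm1, Irgm2, Ifi47 and Tgtp1, and a gene was kept where the annotation of a probe set gave it as the one symbol. This left 2 of the 6, Iigp1 and Irgm1, among 19938 genes tested in all. The other 4 symbols stood on 4 probe sets that carry a second symbol, so their values belong to no single gene and are given apart. Each gene had the probe set with the highest mean over the 6 arrays, and both Iigp1 and Irgm1 had 1 probe set each.

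The groups were 3 arrays from mice given type IV concanavalin A (Con A) and 3 from mice given PBS. Con A, a lectin from jack beans, stimulates T cells and inflames the mouse liver. All mice were C57BL/6 with established EL4 tumours, a transplanted lymphoma, so the PBS group is tumour-bearing too, and livers were collected 3 hours after the injection. The labels name the cells myeloid-derived suppressor cells, call the PBS arrays untreated, give no age, and state the Con A dose both as 12.5 mg/kg and as 12.5 ug/kg. They do not say that each array holds a single mouse, so the spread behind each p-value is that between arrays and may in part be technical.

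IRG genes are switched on by interferons, most strongly by interferon-gamma, whose receptor acts through JAK kinases and, further on, the factor IRF1. In mouse cells the effector proteins, among them those of Iigp1, Tgtp1, Tgtp2, Ifi47 and Gm12250, gather on the membrane of vacuoles that hold parasites or bacteria and break it. The regulators Irgm1, Irgm2 and Igtp sit on the cell's own membranes and hold the effectors inactive there. The ATG5, ATG7, ATG3 and ATG16L1 proteins, which conjugate LC3 and GABARAP to membranes, are needed for effectors to reach the right vacuole, and guanylate-binding proteins act beside them.

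The promoters are shown because 7 IRG genes hold matches to interferon motifs in the 100 bases before their start, and 5 of them hold the same arrangement. The 100 bases before the RefSeq gene start are given 5′ to 3′ on the gene's strand, with matches in capitals. The motifs are the core of the interferon-stimulated response element, in which GAAA is followed by any 2 bases and a second GAAA, bound by interferon regulatory factors, and the gamma-activated sequence TTCNNNGAA, known from interferon-gamma-induced genes. Both strands were searched, and a core on the opposite strand reads as TTTC, 2 bases and TTTC.
Irgm1 (GRCm38.p6, chr11:48871421-48871520, minus strand): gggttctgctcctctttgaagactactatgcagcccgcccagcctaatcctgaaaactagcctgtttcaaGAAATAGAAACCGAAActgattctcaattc
Igtp (GRCm38.p6, chr11:58199456-58199555, plus strand): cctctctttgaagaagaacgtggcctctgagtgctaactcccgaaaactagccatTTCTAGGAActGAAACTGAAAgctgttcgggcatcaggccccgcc
Irgm2 (GRCm38.p6, chr11:58214877-58214976, plus strand): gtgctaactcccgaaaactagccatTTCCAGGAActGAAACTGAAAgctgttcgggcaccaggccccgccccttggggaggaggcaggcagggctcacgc
Tgtp1 (GRCm38.p6, chr11:48992247-48992346, minus strand): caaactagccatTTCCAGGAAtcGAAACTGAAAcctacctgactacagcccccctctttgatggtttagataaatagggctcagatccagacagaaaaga
Tgtp2 (GRCm38.p6, chr11:49064213-49064312, minus strand): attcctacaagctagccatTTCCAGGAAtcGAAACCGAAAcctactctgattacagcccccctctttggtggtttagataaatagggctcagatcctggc
Gm12185 (GRCm38.p6, chr11:48927183-48927282, minus strand): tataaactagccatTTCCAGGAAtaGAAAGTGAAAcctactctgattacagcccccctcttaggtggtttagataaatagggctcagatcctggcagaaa
Gm12250 (GRCm38.p6, chr11:58183743-58183842, plus strand): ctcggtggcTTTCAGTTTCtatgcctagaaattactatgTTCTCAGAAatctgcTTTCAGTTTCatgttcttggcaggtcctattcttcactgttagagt

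A response element core was found in 3.44% of 32851 RefSeq promoter windows of 300 bases (250 before the start and 50 after it), a gamma-activated sequence in 8.3% and both in 0.454%. The windows of Igtp, Irgm2, Tgtp1, Tgtp2, Gm12185 and Gm12250 held both motifs. Irgm1 held 2 overlapping cores, from base -30 to -15, and no match to TTCNNNGAA. In Igtp the gamma-activated sequence began at -45 and the core at -34, in Irgm2 at -75 and -64, in Tgtp1 at -88 and -77, in Tgtp2 at -81 and -70, and in Gm12185 at -86 and -75. The spacing from start to start was thus 11 bases in these 5 genes. That arrangement was present in 5 of the 32851 windows (0.0152%), and those were the windows of these 5 genes. The spacing was chosen after the sequences were seen, and the genes are related copies. Gm12250 carried 2 cores on the opposite strand, at -91 and -46, with the gamma-activated sequence at -61 between them. The run CTAGCC lay ahead of the motifs in Irgm1, Igtp, Irgm2, Tgtp1, Tgtp2 and Gm12185. Only the first 5 of these were compared for shared runs, and it was the longest run that all 5 windows shared before the start. The windows of Ifi47, Gm5431 and 9930111J21Rik2 held no match, and that of 9930111J21Rik1 held a core at 26 after the start. Windows follow 1 annotated start each, so no match says only that these letters are absent there. A promoter entry was found for 5 of the 6 listed symbols, all but Iigp1. Matches for Gm4951, Gm4841, Irgc1 and Irgq were not listed, so the motifs described here do not cover the whole family.

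**Figure D1:**
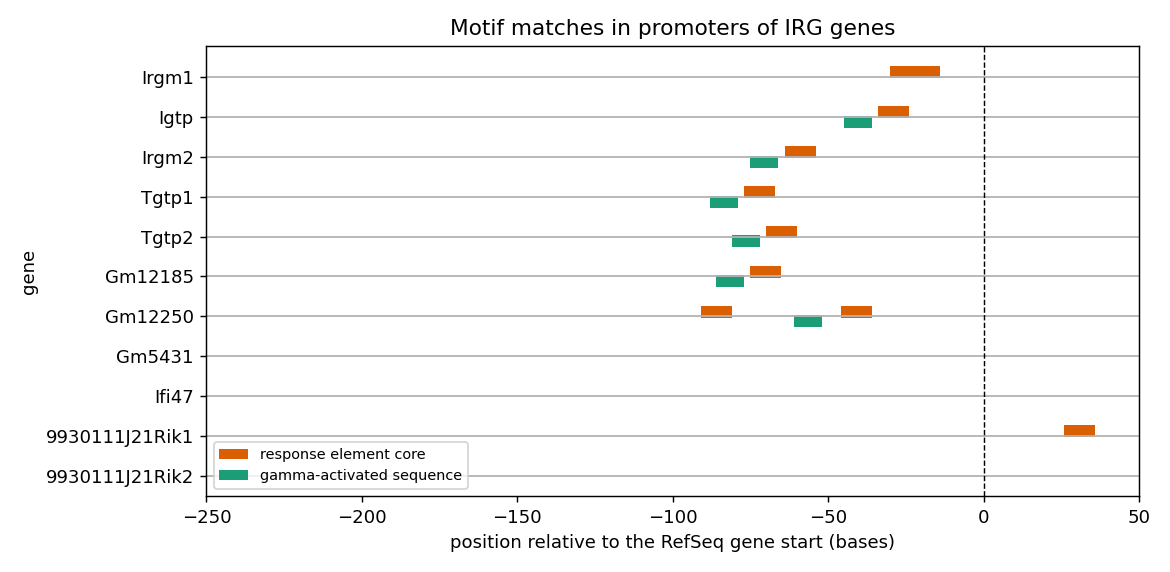
Motif matches in the promoter windows of 11 IRG genes, by distance in bases from the RefSeq gene start (dashed line). Orange bars are response element cores and green bars gamma-activated sequences. In Igtp, Irgm2, Tgtp1, Tgtp2 and Gm12185 the green bar starts 11 bases ahead of the orange one.

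Both Iigp1 and Irgm1 were higher after Con A on every array. Iigp1 was 9.20-fold higher and Irgm1 4.01-fold higher. Of all 19938 genes, 4.59% were higher past the threshold of 0.05 (limma, Benjamini-Hochberg adjusted p), and 1.2% were higher past it by at least 2-fold. By size of difference Iigp1 ranked 10 and Irgm1 ranked 46 among all genes, whose median difference was 0.02 on the log2 scale.

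Iigp1 (probe set 10455961), which encodes the effector IRGA6, had log2 values of 8.09, 9.40 and 8.69 in Con A replicates 1 to 3, against 5.45, 5.49 and 5.65 in PBS replicates 1 to 3. The lowest Con A array lay 2.45 above the highest PBS array. The mean was 8.73 ± 0.66 after Con A and 5.53 ± 0.11 after PBS (SD, n = 3 each), and the difference was 3.20 ± 0.29 (SE; 95% interval 2.53 to 3.88; adjusted p = 0.00117 by limma). The Con A arrays were spread more widely than the PBS arrays. The PBS values lay below the array medians of 7.05 to 7.08, in the part of the scale where differences are compressed, and the files give no detection call. Con A replicate 2 was the highest array, and without it the difference was 2.86 (adjusted p = 0.00556).

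Irgm1 (probe set 10385500), the regulator that also serves autophagy and the survival of interferon-treated phagocytes, had 12.62, 12.88 and 12.72 in Con A replicates 1 to 3, against 10.35, 10.36 and 11.48 in PBS replicates 1 to 3. The groups did not overlap, with a gap of 1.13 between the lowest Con A array and the highest PBS array. PBS replicate 3 stood about a full log2 unit above the other PBS arrays. The mean was 12.74 ± 0.13 after Con A and 10.73 ± 0.65 after PBS (SD, n = 3 each), and the difference was 2.00 ± 0.29 (SE; 95% interval 1.33 to 2.68; adjusted p = 0.00531 by limma). Without PBS replicate 3 it was 2.38 (adjusted p = 5.41e-05). The spread thus lay in the PBS arrays for Irgm1 and in the Con A arrays for Iigp1. The narrow group of each lay toward an end of the scale, where differences can be compressed. The array maxima were 14.24 to 14.30, above the Con A values of Irgm1. By mean level, Iigp1 stood at percentile 15.9 of all genes after PBS, and Irgm1 at percentile 99.0 after Con A. The part of the scale in these spreads was not tested.

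Groups that did not overlap were found in 29.9% of all genes, and in 14.4% with Con A higher. Iigp1 and Irgm1 were both of the kind with Con A higher. The exact two-sided permutation test over 6 arrays gave p = 0.1 for each of Iigp1 and Irgm1, the smallest value that 3 against 3 allows. Iigp1 changed by 1.20 ± 0.44 (SE) more than Irgm1 on the log2 scale, with an exact two-sided permutation p of 0.1, again the smallest that this test can give with 3 arrays against 3. The differences of Iigp1 and Irgm1 were 3.26 and 2.38 without PBS replicate 3, and 3.52 and 2.06 without Con A replicate 1. Their probe sets lie in different parts of the scale, and the part of this in the contrast was not tested.

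**Figure D2:**
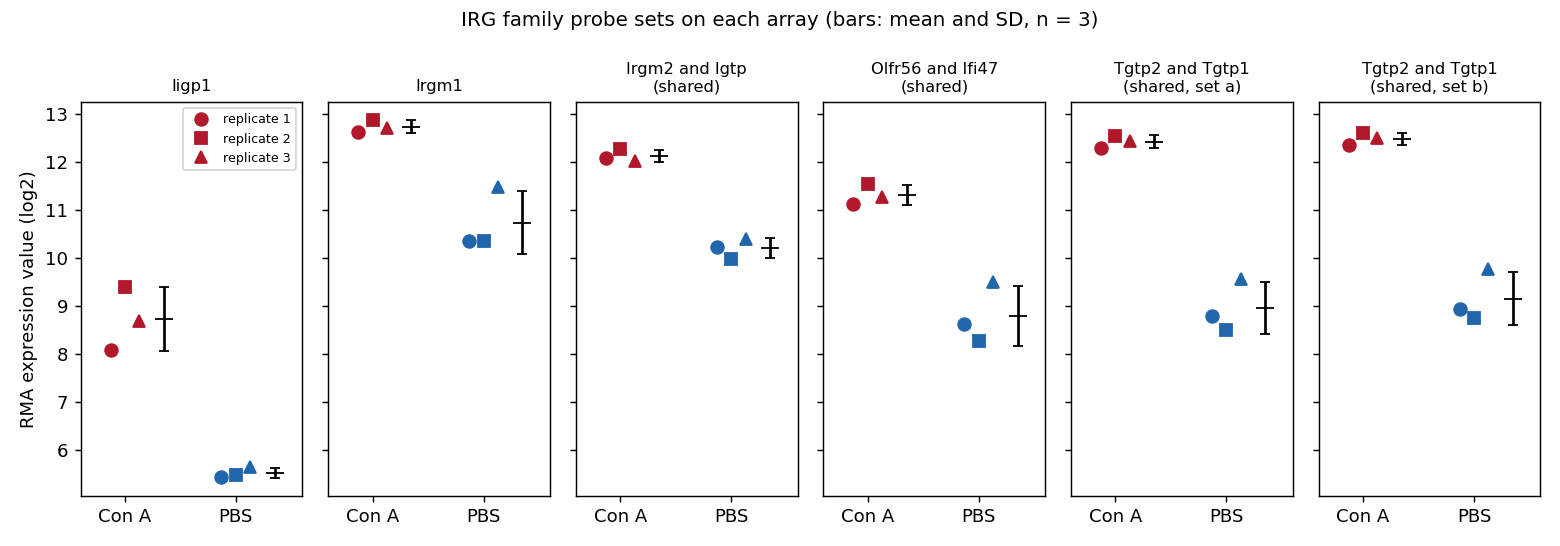
RMA log2 values of Iigp1, Irgm1 and the 4 probe sets with a second symbol, on each array. Symbols mark replicates, and bars the mean and SD of 3 arrays. In each panel all Con A arrays lie above all PBS arrays, and PBS replicate 3 (triangle) is the highest PBS array. Levels of different probe sets are not comparable with each other.

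The 4 listed genes without a probe set of their own were Igtp, Irgm2, Ifi47 and Tgtp1. The probe sets that carry them were tested in a fit of all 35556 rows, in which 3.02% of rows were higher past the threshold. All 4 probe sets were higher after Con A in that fit. A change in either of their genes could give these values.

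Probe set 10376326 carries Irgm2 and Igtp, both regulators. Its values were 12.08, 12.27 and 12.03 in Con A replicates 1 to 3, against 10.22, 9.98 and 10.40 in PBS replicates 1 to 3. Its difference was 1.93 (95% interval 1.62 to 2.23; limma adjusted p = 0.00125), or 3.80-fold. The PBS arrays were closer together than those of Irgm1, with an SD of 0.21 against 0.65, and the Con A arrays had an SD of 0.13 in both.

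A pair of probe sets carries Tgtp1 and Tgtp2, near-identical copies that encode the effector IRGB6. Probe set 10385518 had 12.28, 12.55 and 12.44 in Con A replicates 1 to 3, against 8.79, 8.51 and 9.56 in PBS replicates 1 to 3. It was higher by 3.47 (95% interval 2.86 to 4.08; limma adjusted p = 0.00158), or 11.1-fold, and ranked 7 among all rows. The other, 10385533, had 12.34, 12.60 and 12.50 in Con A replicates 1 to 3, against 8.93, 8.75 and 9.78 in PBS replicates 1 to 3, a difference of 3.33 (limma adjusted p = 0.00178). The copies cannot be told apart, and neither can the probe sets be assigned to one of them.

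Probe set 10375515 carries Ifi47, which encodes the effector IRGD, and the olfactory receptor gene Olfr56. It had 11.13, 11.55 and 11.26 in Con A replicates 1 to 3, against 8.61, 8.27 and 9.49 in PBS replicates 1 to 3. The difference was 2.52 (95% interval 1.80 to 3.24; limma adjusted p = 0.00555), or 5.74-fold. In these 4 probe sets the groups did not overlap, with Con A higher. That held for 14.4% of the 19938 genes with a probe set of their own, and was not counted over all rows. Each of the 4 kept its call in all 6 fits that left out 1 array, with limma adjusted p up to 0.0355.

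Further IRG genes outside the 6 symbols were listed, and 6 of them had a probe set of their own. Of these 4 rose, against 4.59% of all genes, 0 fell and 2 did not pass, with a median difference of 1.00. Gm12250, the effector gene also named Irgb10, whose product acts on the membranes of bacteria beside guanylate-binding proteins, had 12.24, 12.56 and 12.34 in Con A replicates 1 to 3, against 9.05, 8.89 and 10.13 in PBS replicates 1 to 3. It rose by 3.02 ± 0.30 (SE; adjusted p = 0.0015 by limma). Gm4951, also named Ifgga2 and a neighbour of Iigp1, had 8.43, 8.78 and 8.42 in Con A replicates 1 to 3, against 5.31, 5.24 and 5.59 in PBS replicates 1 to 3. Its rise of 3.17 ± 0.13 (SE) had the smallest adjusted p of the IRG genes, 0.000273 by limma. As for Iigp1, its PBS values lay below the array medians, where differences between arrays are compressed. The part of this in the small SE was not tested.

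Gm12185, named Irgb2b1 in RefSeq, rose by 1.53, at 8.24 ± 0.27 after Con A and 6.72 ± 0.14 after PBS (SD, n = 3 each; limma adjusted p = 0.00129). It was the one of the larger rises in which PBS replicate 3 was the lowest PBS array, at 6.56 against 6.82 and 6.77. Irgc1, known for its expression in testis, rose by 0.44 with an adjusted p of 0.0391 by limma. That call was lost without Con A replicate 1 (0.0887), Con A replicate 2 (0.139), Con A replicate 3 (0.0894), PBS replicate 2 (0.115) or PBS replicate 3 (0.0733). Gm4841, also named Ifgga3, stood at 6.10 ± 0.10 after Con A and 5.62 ± 0.26 after PBS and did not pass (adjusted p = 0.0626 by limma), but passed without PBS replicate 1 (0.0287). Irgq, a divergent relative, differed by -0.07 (95% interval -0.25 to 0.11).

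The probe sets 10385513 and 10385526 both carry 9930111J21Rik1 and 9930111J21Rik2, of which 9930111J21Rik2 is also named Irgb5. They differed by 0.37 and 0.38 and did not pass in the fit of all rows (limma adjusted p = 0.0817 and 0.0843). The first had 11.74, 11.90 and 11.89 in Con A replicates 1 to 3, against 11.50, 11.30 and 11.61 in PBS replicates 1 to 3. These arrays did not overlap either, though by only 0.13.

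**Figure D3:**
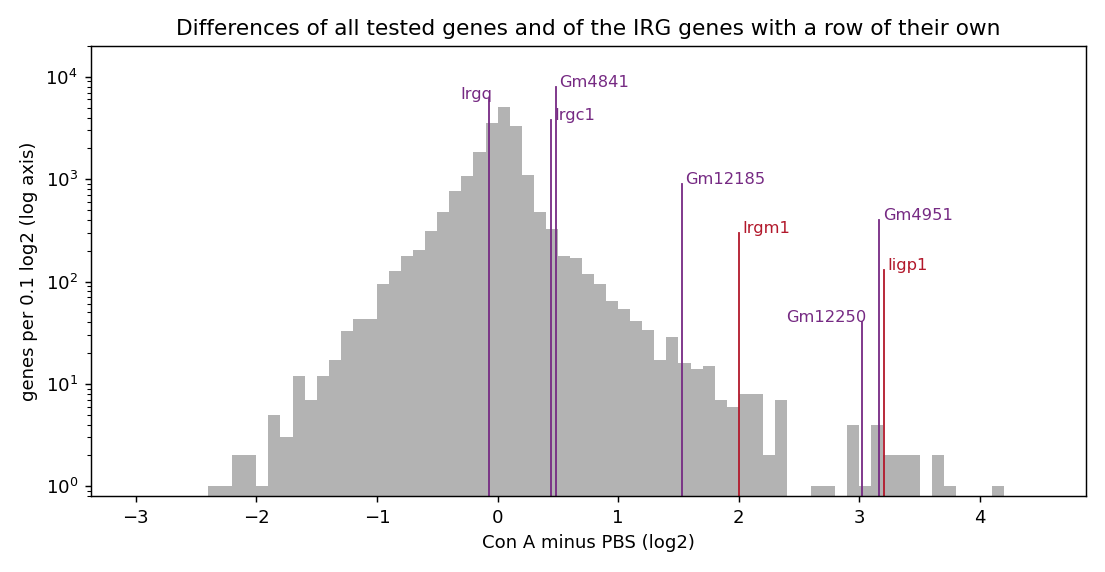
Histogram of Con A minus PBS (log2) for all 19938 genes, on a log count axis, with lines at the IRG genes that have a probe set of their own. Red marks Iigp1 and Irgm1, and purple the 6 further genes. Iigp1, Gm4951 and Gm12250 lie beyond 3, and Irgq lies near 0.

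Together, 8 IRG genes had a probe set of their own, and 6 probe sets carried several symbols with an IRG gene among them. Con A arrays lay above all PBS arrays in 13 of these 14 probe sets, against 14.4% of all genes with a probe set of their own. That share was not counted for probe sets with several symbols. The order of the arrays recurred. Con A replicate 2 was the highest Con A array in 13 of 14, and PBS replicate 3 the highest PBS array in 10 of 14. How often these arrays were highest among all genes was not counted. The order can therefore not be called particular to the family. PBS replicate 3 lay 0.75 above its PBS mean for Irgm1, 0.77 for Gm12250, 0.70 for the probe set of Olfr56 and Ifi47 and 0.61 and 0.63 for those of Tgtp2 and Tgtp1. For Iigp1 it lay 0.12 above, for Gm4951 0.21 and for the probe set of Irgm2 and Igtp 0.20. The probe sets are not independent of each other, since they share the arrays and in part their sequence.

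**Figure D4:**
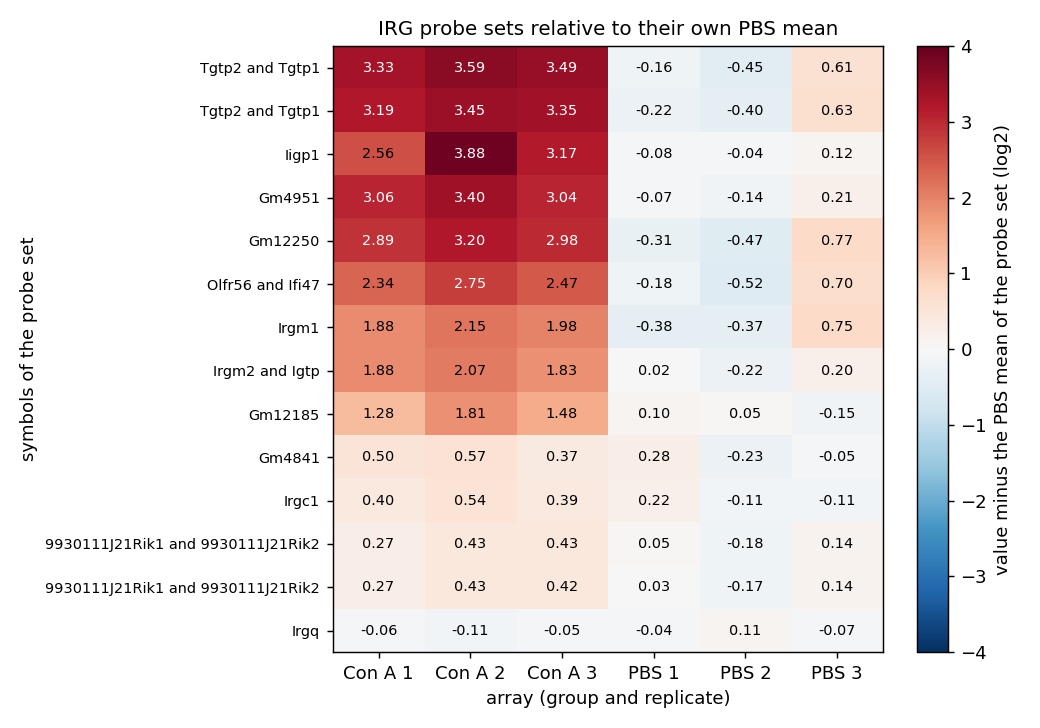
Value of each IRG probe set on each array minus its own PBS mean (log2), ordered by the difference between groups. Columns are the 3 Con A and the 3 PBS arrays, and printed numbers are the values. Most rows are raised in PBS 3 relative to PBS 1 and PBS 2, and all Con A columns exceed the PBS columns except for Irgq.

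In the RefSeq gene order of GRCm38.p6 these genes form clusters. Irgm1, Gm5431, Gm12185, 9930111J21Rik1, Tgtp1, 9930111J21Rik2, Tgtp2 and Ifi47 follow each other with Psme2b among them. Gm12250, Igtp and Irgm2 form a second cluster on the same chromosome, and Gm4951, Gm4841, F830016B08Rik and Iigp1 another on a different chromosome. The nearest 3 protein-coding genes with a probe set of their own on each side of the 3 clusters were compared, 18 in all, a check added after the data were seen. Of these 0 rose and 2 fell in limma's test (2 and 4 at an unadjusted p under 0.05), with differences between -0.96 and 0.48. The counts by adjusted p, 0 and 2, are near the shares of all genes, of which 4.59% rose and 7.22% fell. The share of all genes at an unadjusted p under 0.05 was not counted, so the counts of 2 and 4 have no background. The genes that fell were 4930438A08Rik, at -0.96 (adjusted p = 0.0305 by limma), and Zfp672, at -0.35 (adjusted p = 0.038 by limma). They border the cluster of Igtp and Irgm2. The difference of 0.48 was that of the olfactory receptor gene Olfr1396, which did not pass (adjusted p = 0.206 by limma).

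Genes of the pathway upstream of the family were read from the same fit. Of 24 listed genes of interferon-gamma production and signalling 23 were measured, of which 11 rose and 0 fell, where 4.59% of all genes rose and 7.22% fell, with a median difference of 0.39. Ifng, the ligand, rose by 1.29, with 8.78, 8.44 and 9.30 in Con A replicates 1 to 3, against 7.37, 7.41 and 7.87 in PBS replicates 1 to 3 (limma adjusted p = 0.0118, and 0.062 without PBS replicate 1). The receptor genes Ifngr1 and Ifngr2 differed by 0.07 (95% interval -0.12 to 0.25) and -0.20 (-0.38 to -0.02), and neither passed the test. Jak1 and Jak2, the kinases on that receptor, differed by -0.17 and 0.33 and did not pass either (adjusted p = 0.213 and 0.137 by limma), though Jak2 passed without PBS replicate 3 (0.0386).

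Irf1, which encodes the factor that binds response elements, rose by 1.47, at 12.97 ± 0.12 after Con A and 11.50 ± 0.14 after PBS (SD, n = 3 each; limma adjusted p = 0.000604). Irf8 rose by 0.98 (limma adjusted p = 0.0189), a call lost without Con A replicate 2 (0.0699), Con A replicate 3 (0.0719), PBS replicate 1 (0.0807) or PBS replicate 2 (0.0565). Socs1, the feedback inhibitor of the JAK kinases, had 11.19, 11.46 and 11.39 in Con A replicates 1 to 3, against 7.91, 8.14 and 8.30 in PBS replicates 1 to 3. Its difference of 3.23 ranked 9, next to that of Iigp1. The receptor gene Il12rb2 and the subunit gene Il12a, both of the interleukin-12 axis that drives interferon-gamma, rose by 1.46 and 1.40. In PBS replicate 3 Ifng, Irf1 and Socs1 were each the highest of the PBS arrays, as Irgm1 was. Among the Con A arrays Irgm1, Irf1 and Socs1 were highest in replicate 2, but Ifng was lowest there, so it did not follow Irgm1 on every array.

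Among guanylate-binding protein genes, large interferon-induced GTPases that work with the IRG proteins, 6 of 8 measured rose, against 4.59% of all genes, and 0 fell, with a median of 2.05. Gbp4, Gbp5, Gbp7 and Gbp8 rose by 3.49, 3.34, 2.69 and 2.14. In PBS replicate 3 Gbp5 stood at 10.10, against 8.69 and 8.05 in PBS replicates 1 and 2, so this array was raised there too.

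Autophagy genes, in a list wider than the conjugation genes named above as needed by the effectors, moved in both directions. Of 33 measured genes of ATG8 conjugation and autophagy 3 rose and 7 fell, or 10 past the threshold against 11.8% of all genes, with a median of -0.12. The third gene that rose was Tax1bp1, an autophagy receptor gene, by 0.35 (limma adjusted p = 0.0341). That call was lost in 5 of the 6 fits with 1 array left out, all but the one without Con A replicate 1, at adjusted p up to 0.108. Atg3 and Atg5, parts of the conjugation machinery, fell by 0.50 and 0.54. Atg5 had 8.76, 8.60 and 8.70 in Con A replicates 1 to 3, against 9.09, 9.30 and 9.31 in PBS replicates 1 to 3 (limma adjusted p = 0.00868). Atg16l1, their partner, rose by 0.58, at 9.90 ± 0.04 after Con A and 9.33 ± 0.03 after PBS (SD, n = 3 each; limma adjusted p = 0.00239). Atg7 differed by -0.34 (limma adjusted p = 0.0556, and 0.016 without PBS replicate 3).

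Atg4c, a protease that processes ATG8 proteins, fell by 1.34, with 6.62, 6.59 and 6.94 in Con A replicates 1 to 3, against 8.11, 8.01 and 8.05 in PBS replicates 1 to 3. Its relative Atg4a rose by 0.60 (limma adjusted p = 0.0139, and 0.0504 without PBS replicate 1). Atg14, part of the lipid kinase complex of autophagy, fell by 0.60, a call lost without Con A replicate 2 (limma adjusted p = 0.097), Con A replicate 3 (0.0809) or PBS replicate 1 (0.0791). Map1lc3b, which encodes LC3B, fell by 0.28 (limma adjusted p = 0.0351). That call was lost in 5 of the 6 fits with 1 array left out, namely without Con A replicate 1, 2 or 3 or PBS replicate 1 or 2, at adjusted p up to 0.12. Gabarap, Gabarapl1 and Gabarapl2, the LC3 relatives, differed by -0.05, -0.45 and -0.03 and did not pass.

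Of 15 measured genes of vacuole ubiquitin tagging and lysosomes 4 rose and 1 fell, where 4.59% of all genes rose and 7.22% fell, with a median of 0.08. Traf6 and Trim21, ubiquitin ligases that are recruited to parasite vacuoles, rose by 0.89 and 1.01. Lgals8, a galectin that marks broken vacuoles, rose by 0.91, at 10.92 ± 0.04 after Con A and 10.01 ± 0.18 after PBS (SD, n = 3 each). Rnf213, a ubiquitin ligase active against intracellular bacteria, rose by 0.57, a call lost in 5 of 6 fits with 1 array left out, all but the fit without PBS replicate 3, with adjusted p up to 0.125. Tfeb, which encodes a master factor for lysosome genes, fell by 0.54 (limma adjusted p = 0.0109, and 0.0537 without PBS replicate 1).

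Genes whose pattern over the 6 arrays was nearest to the mean pattern of Iigp1 and Irgm1 were found by the root mean square distance of values centred on each gene's mean, predicted genes left out. In order these were Ralgds, Gbp7, Trim13, Tifa, Calhm6, Cd69, Slc31a1 and Arap2, at distances from 0.18 to 0.32 on the log2 scale. Ralgds had 10.29, 10.76 and 10.69 in Con A replicates 1 to 3, against 8.02, 7.88 and 8.75 in PBS replicates 1 to 3. The nearest gene to Iigp1 alone was F3, at 0.20, and to Irgm1 alone Icam1, at 0.12. Iigp1 and Irgm1 lay 0.74 from each other. A nearest gene has the smallest distance among many genes, so the 0.74 cannot be set against it. Like Irgm1, Icam1 was raised in PBS replicate 3, at 11.46 against 10.59 and 10.29 in PBS replicates 1 and 2. F3 was not, at 6.79 against 6.93 and 7.09. Icam1 and F3 were picked by these same values, so their likeness to the members is no separate result.

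**Figure D5:**
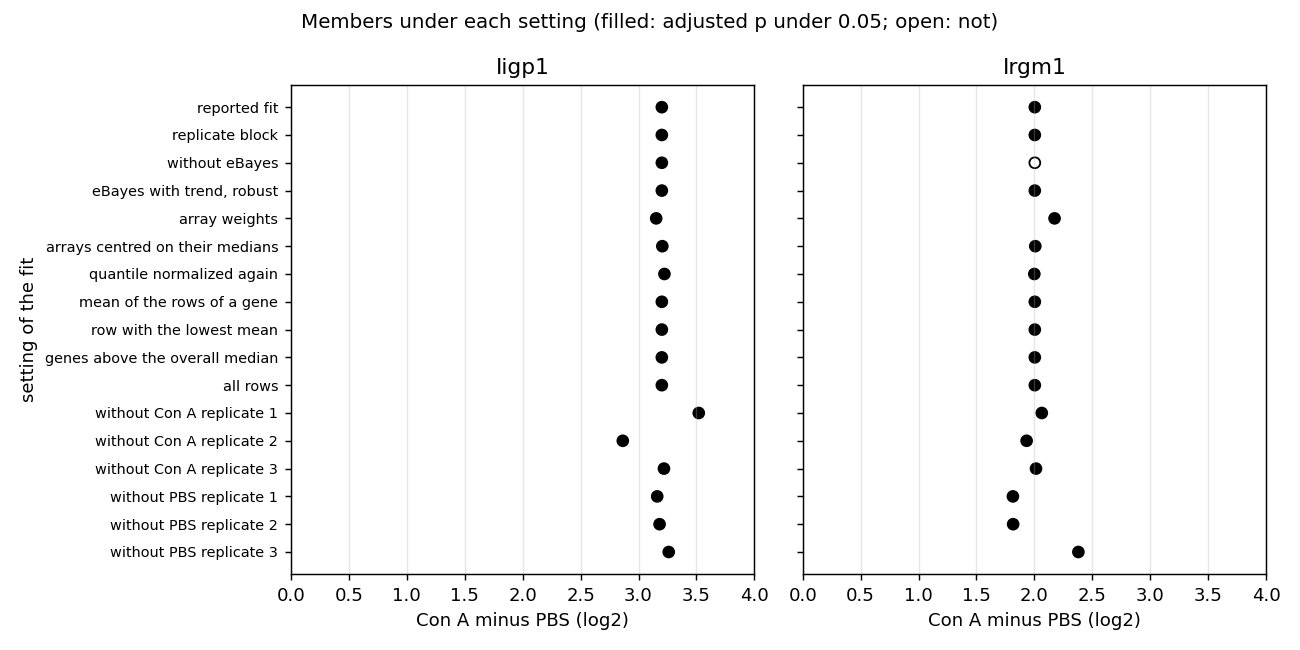
Con A minus PBS (log2) of Iigp1 and Irgm1 in the reported fit and under 16 other settings. Filled points have an adjusted p under 0.05 and the open point does not. Iigp1 lay between 2.86 and 3.52 and Irgm1 between 1.81 and 2.38.

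The labelled cell type was checked against marker genes, to be read beside the 4.59% of all genes that rose and the 7.22% that fell. Those shares are by adjusted p. The share of all genes at an unadjusted p under 0.05 was not counted, so marker counts by unadjusted p have no background. Itgam, which encodes CD11b, and Ly6g, the granulocyte part of the Gr-1 epitope, stood at 12.77 ± 0.04 and 13.51 ± 0.05 after Con A, against 12.92 ± 0.15 and 13.59 ± 0.09 after PBS (SD, n = 3 each). Of 14 granulocytic markers 0 rose and 1 fell (Mmp9). At an unadjusted p under 0.05, 2 were higher, Mpo by 0.73 and Elane by 0.76 (limma adjusted p = 0.0653 and 0.194). With array weights Mpo passed (limma adjusted p = 0.0445). Of 10 monocytic markers 1 rose (Cd14) and 4 fell, F13a1, Ccr2, Cx3cr1 and Fn1 (7 at an unadjusted p under 0.05), with mean log2 levels of 10.32 to 10.76 after Con A and 11.22 to 11.56 after PBS. The calls of Cd14 (up to 0.0787 without Con A replicate 2, Con A replicate 3 or PBS replicate 1) and Fn1 (0.076 without PBS replicate 1) were lost in fits with 1 array left out, and 3 further monocytic markers passed as lower in such fits, Ms4a4c without Con A replicate 3 (0.0316) and Csf1r (0.0372) and Vcan (0.0305) without PBS replicate 2. The part of these markers in the rise of Iigp1 and Irgm1 was not tested, and in sorted bulk cells fewer cells of a type and less RNA per cell cannot be told apart. Kupffer cell markers had 0 of 8 rise and 1 fall (Slc40a1). The 7 that did not pass all had positive differences, the largest being Vsig4 (1.23) and Cd5l (0.955), and the list median was 0.54. Vsig4 was 10.12 in Con A replicate 2, 6.95 and 8.35 in Con A replicates 1 and 3, and 6.47 to 7.87 after PBS. Mean levels of the list were 7.22 to 8.74 after Con A and 7.27 to 7.66 after PBS. The 8.74 was that of Con A replicate 2, the array highest in Iigp1. Without that array the differences of Iigp1 and Irgm1 were 2.86 and 1.93. The part of the Kupffer cell markers in these results was not tested. NK cell markers, with 1 of 8 risen (Gzmb, by 1.75, a call lost when Con A replicate 1, at 0.0528, or PBS replicate 1, at 0.0737, was left out), had mean levels of 7.41 to 8.55 after Con A and 7.58 to 8.04 after PBS. Their lowest level was that of Con A replicate 2. Without that array Gzma (1.35, adjusted p = 0.00605) and Eomes (0.51, adjusted p = 0.0449) passed as higher too, so that 3 of 8 rose. The part of the NK cell markers in the rise of the IRG genes was not tested. T cell and EL4 markers had 0 of 7 past limma's threshold (2 at an unadjusted p under 0.05, the largest difference being 0.30 for Cd28 and 0.18 for Cd8a) and stood at 6.58 to 6.70 after Con A and 6.54 to 6.67 after PBS, below the array medians. Of the hepatocyte markers 0 of 7 passed in limma's test, and 0 at an unadjusted p under 0.05. The largest differences among them were those of Alb (0.86) and Fgb (0.52), and Alb stood at 11.17 in Con A replicate 2, against 9.01 and 9.10 in Con A replicates 1 and 3 and 8.69 to 9.09 in the PBS arrays. Of the dendritic cell markers 0 of 6 passed in limma's test, also at an unadjusted p under 0.05, with Ccr7 at 0.32 and Clec9a at -0.07. Of the B cell markers 1 of 5 fell (Ms4a1, lost without Con A replicate 1 or 2 or PBS replicate 1 or 2, at adjusted p up to 0.106), and 3 were lower at an unadjusted p under 0.05. Without PBS replicate 3, Cd79a (-0.46, adjusted p = 0.03) and Cd79b (-0.85, adjusted p = 0.00296) passed as lower. Of 6 endothelial markers 1 rose (Pecam1) and 1 fell (Lyve1, with an adjusted p of 0.0558 when Con A replicate 2 was left out and 0.0598 when PBS replicate 1 was). The values carry no detection calls, so no marker can be placed at 0.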

How the data were processed

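RNA of 6 samples in 2 groups of 3 was hybridised after whole-transcriptome amplification. The authors deposited log2 expression values, and the submitters' processing notes list RMA and Partek, with no version or setting. Array values of this kind can compress differences at both ends of the scale. No genome build for the probes is stated in what was used. Replicate samples held 0 identical pairs.

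Of 35556 rows, 21789 had 1 symbol, 1621 several and 12146 none. Rows with 1 symbol were tested, with the row of the highest mean for each gene, and rows with several only in the fit of all rows. The difference, Con A minus PBS, came from limma 3.58.1 under R 4.3.3 (lmFit, eBayes, two-sided). P-values were adjusted after Benjamini and Hochberg across all genes tested, and 0.05 was the threshold. Exact tests and motif searches used Python 3.11.15 and SciPy 1.17.1. Promoter sequences are from RefSeq (GRCm38.p6). The fit was tested on simulated data. Precision is limited by having 3 arrays a group.

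The members and lists were chosen with earlier results of these data known. Named were all IRG genes, fixed signalling and ATG8 genes, up to 4 called genes of each list with the largest difference (at least 2 values where none passed) and the nearest patterns. Alternatives were the replicate block, other variance models, array weights, other scalings, other rows per gene, a filter on dim genes, all rows and each array left out. Replicate numbers are shared by the groups. The deviations of same-numbered arrays correlated at 0.228, -0.17 and 0.555, so the numbers were not taken to pair the samples.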

Additional observations from a re-analysis of the deposited data

How the results depend on the processing

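Iigp1 kept its direction and its call under all 16 alternatives, between 2.86 and 3.52 on the log2 scale with adjusted p between 0.00058 and 0.0458. Irgm1 kept its direction under all 16, between 1.81 and 2.38, and its call under 15. Without the moderation of variances its adjusted p was 0.0843, so that 1 of the 2 members passed, and the count of all genes was 671 (290 higher), that of the autophagy list 4, guanylate-binding proteins 2, interferon-gamma signalling 4 and vacuole genes 3. The cause was not tested.

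With 1 array left out both members passed each time. The count of all genes ranged from 1140 to 2765, against 2355 in the reported fit, and of higher genes from 458 to 1114, against 915. The lowest counts were those without PBS replicate 1, and the total also fell to 1272 (Con A replicate 2 left out) and 1480 (Con A replicate 3 left out). The autophagy list ranged from 5 to 11 (10 reported; 6 without Con A replicate 2 or 3), interferon-gamma signalling from 7 (without PBS replicate 1) to 13 (11 reported), vacuole genes from 3 (without PBS replicate 1) to 5 (5 reported), guanylate-binding proteins from 6 to 8 and the further IRG genes from 3 to 5.

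With the replicate number as a block, which the labels do not say is a pairing, Iigp1 had an adjusted p of 0.000937 and Irgm1 of 0.00322, and 2539 genes passed in all. Of the same-numbered arrays, Con A replicate 1 deviated most like PBS replicate 2 (0.538), so not every array was nearest to its own number. The fit of all rows counts rows, of which 2798 passed.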
